A study of Mus musculus with 2 samples.

Results

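The genes described here encode the proteins of the cytoplasmic ribosome. They were chosen by symbol alone, as the rows of both matrices named Rpl or Rps with a number, together with Rplp0, Rplp1, Rplp2 and Rpsa, leaving out symbols with -ps and the Rps6k kinases. The rule found 87 of 28692 genes. They were measured by 10x 3′ single-cell RNA sequencing in MC38 cells, a mouse colon carcinoma line, from tumours of C57BL/6 albino mice. Spheroids of the tumours were kept in a collagen-filled microfluidic chip, and tumour cells were sorted from them on day 6. The control library received IgG (clone 2A3, 10 µg/mL), and the other received aPD-1 (clone RMP1-14, 10 µg/mL), an antibody that blocks the inhibitory receptor PD-1 of T cells. The series profiles the tumour cells that remain after that blockade. With 1 library per treatment there was no replicate and no test. Each difference below is one between these libraries, and treatment cannot be told apart from sorting, loading or library preparation.

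A ribosome has a small subunit, which holds the mRNA and reads its codons, and a large subunit, which joins the amino acids. Most proteins of each subunit are present in 1 copy, so their mRNAs are made at similar, very high levels in growing cells, and the acidic proteins of the lateral stalk, which recruit the translation factors, are the main exception. Mammalian ribosomal protein mRNAs begin with a tract of pyrimidines, called a 5′ TOP, through which growth signals that run by way of mTOR raise or lower their translation together. By symbol, 34 of the genes belonged to the small subunit, 50 to the large subunit and 3 to the stalk, spread over 19 chromosomes. The symbol rule also took in Rps19bp1, which encodes a protein that binds Rps19 and is no part of the ribosome, and Rpl6l, which GENCODE annotates as a processed pseudogene.

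Cells were barcodes of at least 5000 unique molecular identifiers (UMIs, which count transcripts) and at most 10% mitochondrial UMIs. These were 2198 cells in IgG with 49422640 UMIs and 3356 in aPD-1 with 61462778, with medians of 20663 and 16577 UMIs per cell and 2.92% and 3.60% mitochondrial UMIs. The libraries shared 8 cell barcodes. Markers of macrophages, endothelium, T or NK cells and epithelium did not reach 10 counts per 1000000 UMIs (CPM) in the summed cells, and the macrophage list summed to 30.9 CPM in IgG and 5.42 in aPD-1. Of 11 fibroblast markers, 8 reached it, with sums of 1253 and 886 CPM. Krt18, a keratin of simple epithelia, was at 0 in both libraries, so the epithelial markers do not bear out the colon carcinoma label, which rests on the labelled line and the sort. The part of any admixed cells in the differences below was not tested, other than by the values within clusters.

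Ribosomal protein genes made up most of the highest transcripts of these cells. Levels are given in CPM over the summed cells. Since 3′ chemistry counts 1 end of each transcript, they were not divided by length. Of the 87 genes, 84 had a mean of at least 10 CPM and 78 had at least 1000 CPM in both libraries. The median of the 84 was 4206 CPM, and 41 of the 50 genes with the highest means belonged to the family. By the mean of both libraries the highest gene of all was Rpl13, of the large subunit, at 9264 CPM in IgG and at 12396 in aPD-1. Rpl41, which encodes the shortest of the proteins, was at 10051 and 8361 CPM, above Rpl13 in IgG. A cell held UMIs of a median of 83 of the 87 genes in each library.

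The 6 genes between 10 and 1000 CPM were copies, relatives or misnamed genes and not core subunits. Rpl22l1, the paralog of Rpl22, was at 709 CPM in IgG and at 729.5 in aPD-1. Rps27l, the paralog of Rps27 and a known target of p53, was at 609.5 and 598 CPM. The others were Rps27rt, a single-exon copy of Rps27, Rps19bp1 at 109 and 109.8 CPM, Rpl7l1, a paralog of Rpl7, at 81.1 and 73.5 CPM, and Rpl6l at 27.1 and 23.5 CPM. The 3 genes below 10 CPM were tissue-restricted paralogs. Rpl3l, the form of striated muscle, had 17 IgG and 6 aPD-1 UMIs, and Rpl39l, a form of the testis, had 5 and 4. Rpl10l, a testis form of Rpl10, had 0 UMIs in either sum, which allows up to 3 counts in each.

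The family took a larger share of the transcripts of aPD-1 cells. Over the IgG cells the share of UMIs was lowest at 8.15%, had a median of 34.2% with quartiles of 29.98% and 38.1%, and was highest at 63.2%. Over the aPD-1 cells the lowest was 9.24%, the median 38.1% with quartiles of 33.8% and 42.3%, and the highest 61.6%. The ranges overlapped almost wholly, and 72.9% of aPD-1 cells lay above the IgG median while 10.97% lay below the lower IgG quartile. Summed over cells, the family held 34.4% of UMIs in IgG (exact binomial 95% interval 34.40 to 34.43%) and 38.2% in aPD-1 (38.16 to 38.18%). These intervals and all others here cover counting error only, and cells of 1 library are not replicates.

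The balance of the subunits differed little beside this. The median cell held 1.40 large subunit UMIs for each small subunit UMI in IgG and 1.37 in aPD-1. The 11 genes of at least 10 CPM whose proteins have fewer than 100 residues, a limit chosen after the values were seen, went against the family. Their share was a median of 5.35% of a cell's UMIs in IgG and 4.19% in aPD-1, whereas that of the other genes was 28.8% and 33.9%.

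**Figure D1:**
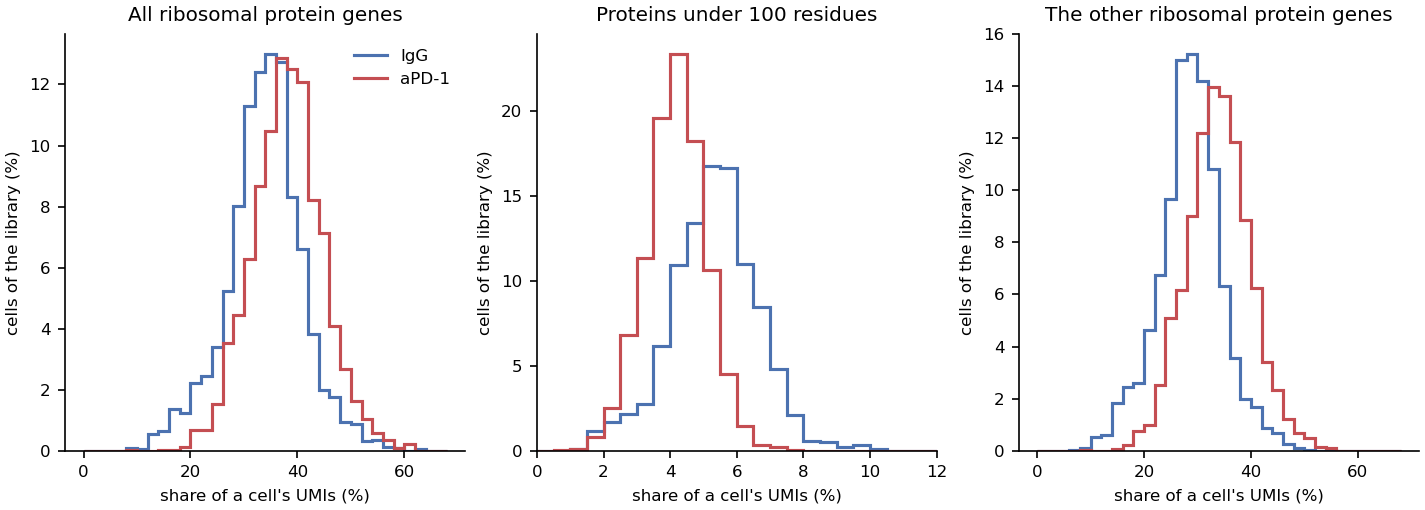
Histograms of the share of a cell's UMIs (x axis, percent) taken by all the ribosomal protein genes (left), by those of proteins under 100 residues (middle) and by the others (right), as a percent of the cells of each library (y axis) for 2198 IgG and 3356 aPD-1 cells. The aPD-1 cells lie to the right of the IgG cells at left and right, with medians of 38.1% against 34.2% for all the genes, and to the left of them in the middle, with medians of 4.19% against 5.35%.

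The share was higher in aPD-1 among cells of like depth. For cells of 5000 to 10000 UMIs the medians were 32.0% in IgG and 36.0% in aPD-1. They were 33.4% and 38.3% for 10000 to 20000 UMIs, 35.2% and 38.6% for 20000 to 40000, and 34.2% and 35.4% in the 172 and 76 cells above 40000. The gap was narrowest in the deepest cells. Sums over the same bands gave the short-protein genes 5.01 to 5.37% in IgG and 3.56 to 4.34% in aPD-1, so neither range reached the other. Across bands of mitochondrial share the family's medians were 35.0% and 38.4% below 2.5%, 34.5% and 38.6% from 2.5 to 5%, and 29.4% and 36.3% from 5 to 10%. The higher share in aPD-1 was thus present in each band of depth and of mitochondrial share, and smallest at 40000 UMIs and above.

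Counted gene by gene, most of the family leaned towards aPD-1 and a small set leaned strongly away. Among genes with a mean of at least 10 CPM, one is called higher here when its aPD-1 level, with 1 CPM added to both, was at least 25% above the IgG level, and lower when it was at least 20% below, which is the same fold either way. Ratios are printed without the added CPM. Of the 84 genes, 12 were higher, where 3.46% of all 6967 genes of that level were. On the other side 7 were lower, where 16.0% of all genes were. The remaining 65 lay within these limits. With both libraries weighted to the same cluster shares, 8 were higher and 7 lower, where 2.71% and 12.8% of all genes were. At limits of 1.1-fold 51 were higher and 14 lower, where 13.8% and 42.6% of all genes were, and at 1.5-fold 0 and 2, where 0.445% and 2.6% were. The median log2 ratio, taken as log2 of (CPM + 1) in aPD-1 over IgG, was 0.17 for the family and −0.10 for all genes, and 64 of the 84 lay above 0. Since the family holds so much of the UMIs, these counts depend on the scale. Against UMIs outside the family 33 genes were higher and 4 lower. On that scale 8194 genes reached 10 CPM, of which 7.21% were higher and 10.2% lower. Relative to the median gene 34 and 4 were, beside 7.71% and 8.7% of all genes. Against the family's own UMIs 1 was higher and 13 lower, beside 1.05% and 37.0% of all genes. Near the limits, Rpl8 at a ratio of 1.26 was still counted as higher and Rps21 at 0.792 as lower. Rps20 at 1.24 and Rpl37a at 0.827 lay just within the limits and were not counted.

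**Figure D2:**
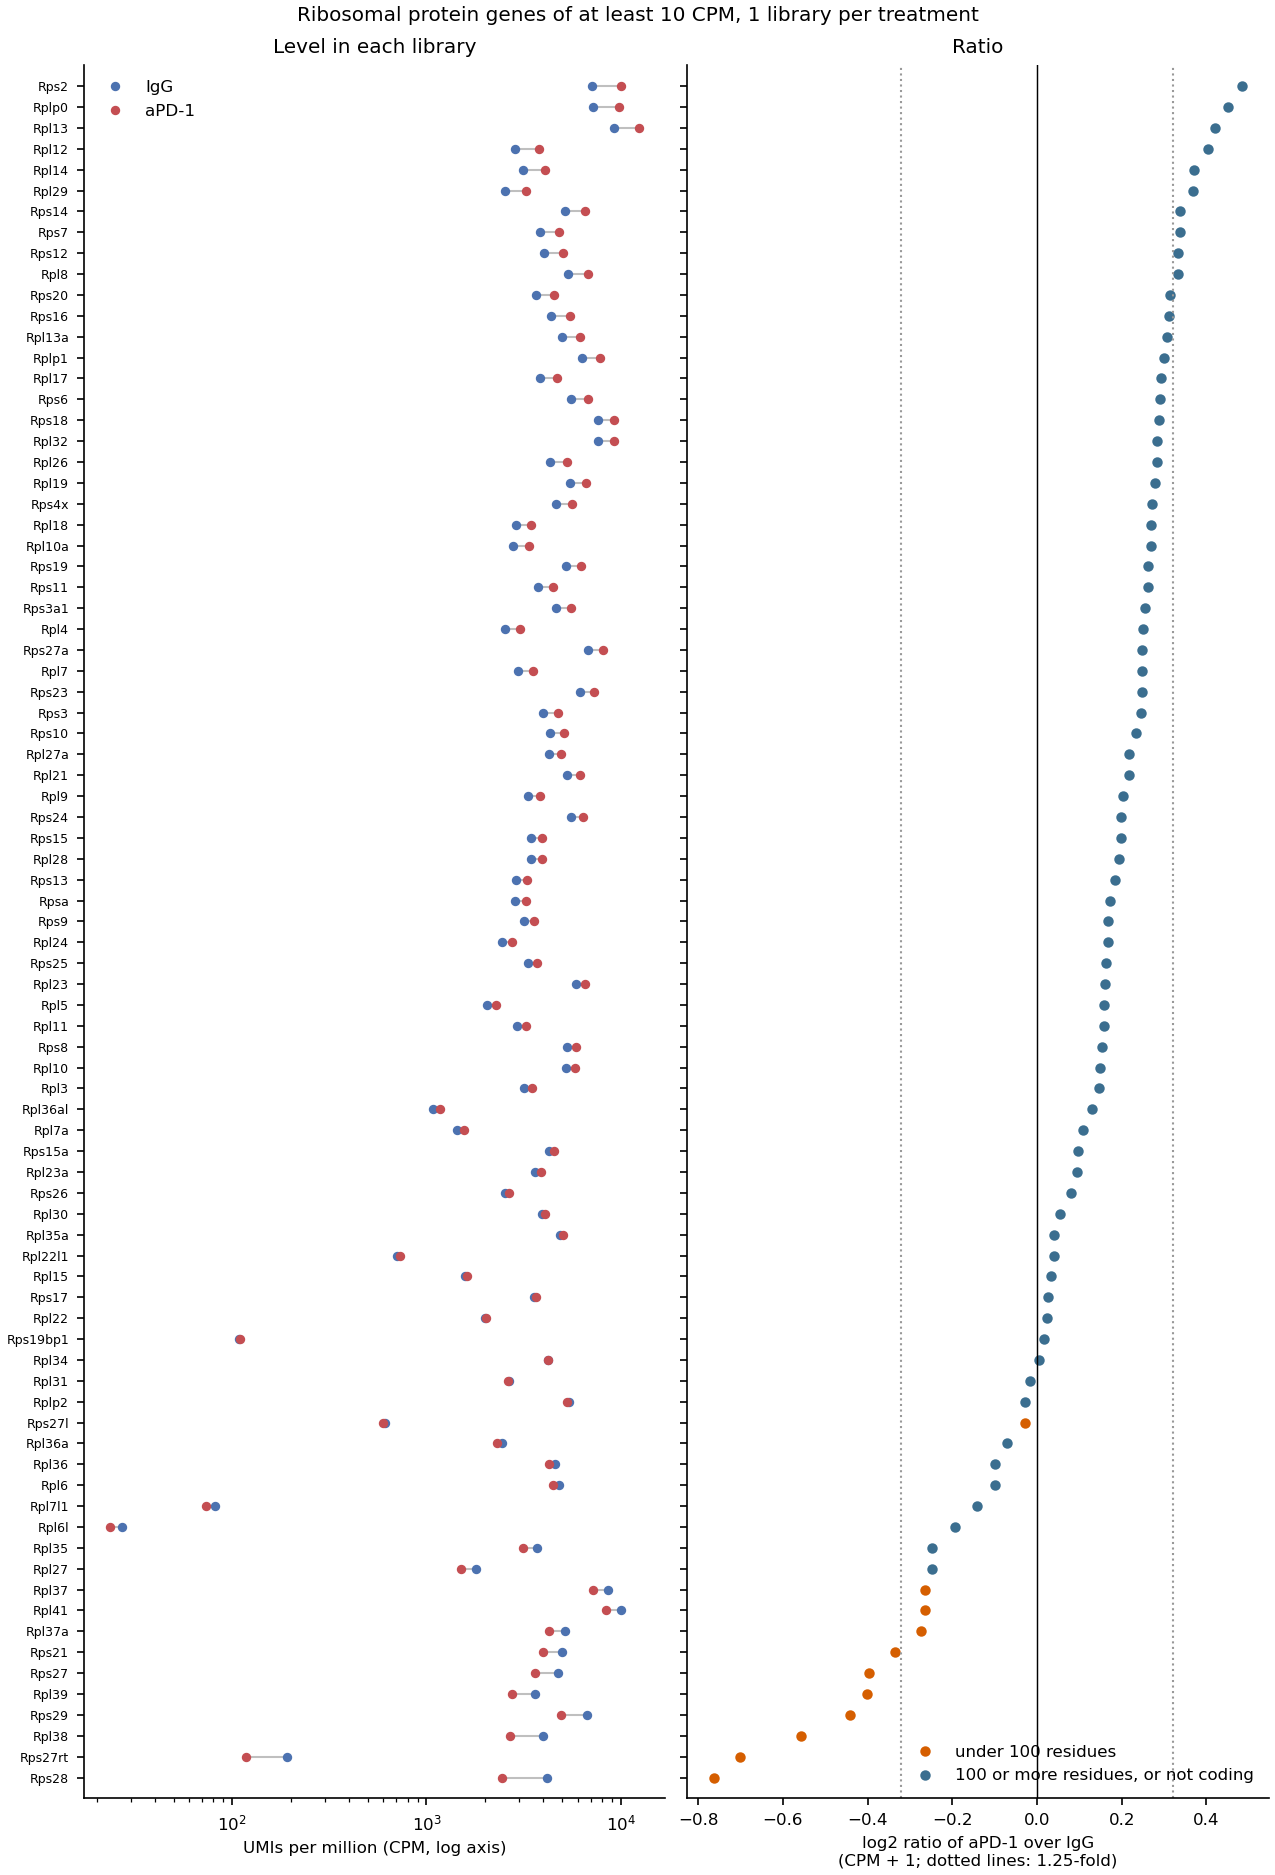
Levels in each library (left, CPM on a log axis, a blue IgG point and a red aPD-1 point per gene) and the log2 of aPD-1 over IgG with 1 CPM added (right) for 82 of the 84 ribosomal protein genes of at least 10 CPM, ordered by ratio. Rps2 is at the top and Rps28 at the bottom, the dotted lines mark the limits of the rule, and the orange points of proteins under 100 residues all lie left of 0.

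In the small subunit 5 of 34 genes were higher and 5 lower, beside 3.46% and 16.0% of all genes. The median log2 ratio was 0.22. Rps2, a protein at the channel where mRNA enters, had the highest ratio of the whole family. It was at 7153 CPM in IgG and at 10012 in aPD-1, a ratio of 1.40 (interval 1.39 to 1.41). The gene is protein-coding and lies at chr17:24718116-24721929 on GRCm38. Among the other higher genes were Rps14 at 5173 and 6539 CPM, Rps7 at 3823 and 4831, and Rps12 at 4013 and 5059 CPM. All 3 had a ratio of 1.26. Rps6, the substrate of the S6 kinases, stayed inside the limit at 5515 and 6751 CPM, a ratio of 1.22. So did Rpsa, which also serves as a laminin receptor, at 2871 and 3234 CPM.

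In the large subunit 6 of the 47 genes of at least 10 CPM were higher and 2 lower, beside 3.46% and 16.0% of all genes. The median was 0.15. Rpl13, at chr8:123102350-123105244, had a ratio of 1.34 (interval 1.33 to 1.34). Rpl12, which forms the base of the stalk, was at 2872 CPM in IgG and at 3799.6 in aPD-1, a ratio of 1.32 (interval 1.31 to 1.33). Rpl14, Rpl29 and Rpl8 were also higher, with ratios from 1.26 (Rpl8) to 1.29 (Rpl14). Rpl5 and Rpl11, which travel with the 5S RNA and bind the p53 regulator Mdm2 when assembly fails, lay close together. Rpl5 was at 2054 and 2293 CPM and Rpl11 at 2908 and 3243 CPM, with ratios of 1.116 and 1.115. Of the large subunit genes of at least 10 CPM and 100 residues, 7 had a ratio below 1. They were Rpl31 at 0.989, Rpl36a at 0.953, Rpl36 and Rpl6 at 0.933, Rpl7l1 at 0.906, and Rpl35 and Rpl27 at 0.842.

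The 3 stalk genes did not move as one. Rplp0, the scaffold of the stalk (chr5:115559467-115563727), was at 7192 CPM in IgG and at 9837 in aPD-1, a ratio of 1.37 (interval 1.36 to 1.37) and the second highest of the family. Rplp1 was at 6334 and 7797 CPM, a ratio of 1.23. Its binding partner Rplp2 was at 5389 and 5287 CPM, a ratio of 0.981 (interval 0.976 to 0.986), and it lay below 0 on the log2 scale in each of 5 clusters while Rplp0 and Rplp1 lay above 0 in each.

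All 7 lower genes encode proteins of under 100 residues. Rps28, which sits where mRNA leaves the small subunit, differed most, at 4176 CPM in IgG and at 2459 in aPD-1, a ratio of 0.589 (interval 0.585 to 0.593). Rpl38, a large subunit protein known for a role in the translation of Hox mRNAs in the embryo, was at 3968 and 2694 CPM, a ratio of 0.679 (interval 0.674 to 0.683). The gap of each was far wider than its counting interval. Rps29, a zinc-binding protein of the small subunit, was at 6723 and 4949 CPM, a ratio of 0.736 (interval 0.733 to 0.740). Rpl39, which lines the exit tunnel of the large subunit, was at 3639 and 2755 CPM, a ratio of 0.757 (interval 0.752 to 0.762). These genes lie at chr11:114668524-114672331 (Rpl38) and chrX:37082520-37085402 (Rpl39) on GRCm38. Rps21 was at 5004 and 3963 CPM, a ratio of 0.792, and Rps27, another zinc-binding protein, at 4772 and 3625 CPM, a ratio of 0.760. As parts of the family's own UMIs, Rps28 made up 1.21% in IgG and 0.644% in aPD-1, and Rps2 made up 2.08% and 2.62%.

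Coding sequences are shown for Rps28 and the Rps27 pair, which are among the 7 lower genes, and for Rpl41 as the shortest protein of all. They were spliced from GENCODE M21 on GRCm38 and read 5′ to 3′ on the coding strand, with the start and stop codons in capitals. The genes lie on the minus strand, Rpl41 at chr10:128548114-128549305 and Rps28 at chr17:33819027-33824562. Rps27rt, at chr9:114982366-114982739, has a coding sequence identical to that of Rps27, at chr3:90212522-90213651, over all 255 bases, so the line below stands for both.
Rpl41: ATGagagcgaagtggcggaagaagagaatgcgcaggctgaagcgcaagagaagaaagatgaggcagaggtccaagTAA
Rps28: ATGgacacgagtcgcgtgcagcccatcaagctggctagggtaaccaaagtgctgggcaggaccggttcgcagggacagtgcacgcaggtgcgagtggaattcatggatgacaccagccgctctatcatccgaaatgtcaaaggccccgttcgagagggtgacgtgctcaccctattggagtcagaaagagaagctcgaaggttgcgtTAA
Rps27 and Rps27rt: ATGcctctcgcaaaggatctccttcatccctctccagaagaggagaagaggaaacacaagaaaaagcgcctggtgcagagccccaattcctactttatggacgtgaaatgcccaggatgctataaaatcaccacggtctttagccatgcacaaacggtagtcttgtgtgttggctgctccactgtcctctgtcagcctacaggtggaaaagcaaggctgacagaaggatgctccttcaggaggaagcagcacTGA

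These open reading frames encode 25, 69 and 84 residues, on annotated transcripts of 582 nt (Rpl41), 392 nt (Rps28), 345 nt (Rps27) and 374 nt (Rps27rt). Rpl41 thus has the shortest frame but a longer transcript than the rest, and its ratio of 0.832 stayed inside the limit. Rps27rt was counted apart from Rps27, at 192 CPM in IgG and at 117 in aPD-1, a ratio of 0.613 (interval 0.594 to 0.632). With identical coding bases, which of the pair a read came from can be told only from bases outside the frame, and the treatment of reads matching both is not given here.

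The ratios went with protein length across the family. The 11 short-protein genes had log2 ratios from −0.76 (Rps28) to −0.03 (Rps27l) with a median of −0.40, and none lay above 0. The other 73 had a median of 0.20, and 64 of them lay above 0. By the rule 12 were higher and none lower, where 3.46% and 16.0% of all genes were. The 19 genes of 150 to 200 residues had a median of 0.26. Across the 83 protein-coding genes of at least 10 CPM the rank correlation of the ratio with residues was 0.58, and among the 72 of at least 100 residues it was 0.37. With mean CPM it was 0.42 over all 83 and 0.54 among those 72, above the value for residues there. Mean CPM contains the aPD-1 level, which is also the upper term of the ratio, so its values cannot be ranked against those of residues. With annotated transcript length the rank correlation of the ratio was 0.34 over all 83 and 0.06 among those 72. With GC content it was 0.18 and 0.20. These points share 1 pair of libraries, and the values are descriptions.

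Outside the family, length in residues did not go with the ratio, but a very short transcript did. Over 6785 other nuclear protein-coding genes the rank correlation was −0.02 with residues and 0.10 with annotated transcript length. The 184 of them that encode fewer than 100 residues had a median log2 ratio of −0.05. By annotated transcript length the shortest bins were the lowest. The 5 other nuclear genes with transcripts under 400 nt were all lower, where 16.0% of all genes were, with a median of −0.75. Among them were Atp5k and Usmg5, small subunits of the ATP synthase, at ratios of 0.555 and 0.568. Of the 28 other genes of 400 to 500 nt 25 lay below 0, with a median of −0.32, and from 600 nt the medians were between −0.13 and −0.04. The 6 ribosomal protein genes under 400 nt had a median of −0.42, those of 400 to 500 nt one of −0.03 over 5 genes, and those of 500 to 600 nt one of 0.13 over 11. In each of these bins the family lay above the other genes. Of the short-protein genes, Rpl39 (612 nt), Rpl41 (582 nt), Rpl37a (558 nt) and Rpl37 (835 nt) lay below 0 with annotated transcripts of over 500 nt. The part of transcript length, or of a step of library preparation that depends on it, in the low ratios was not tested.

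**Figure D3:**
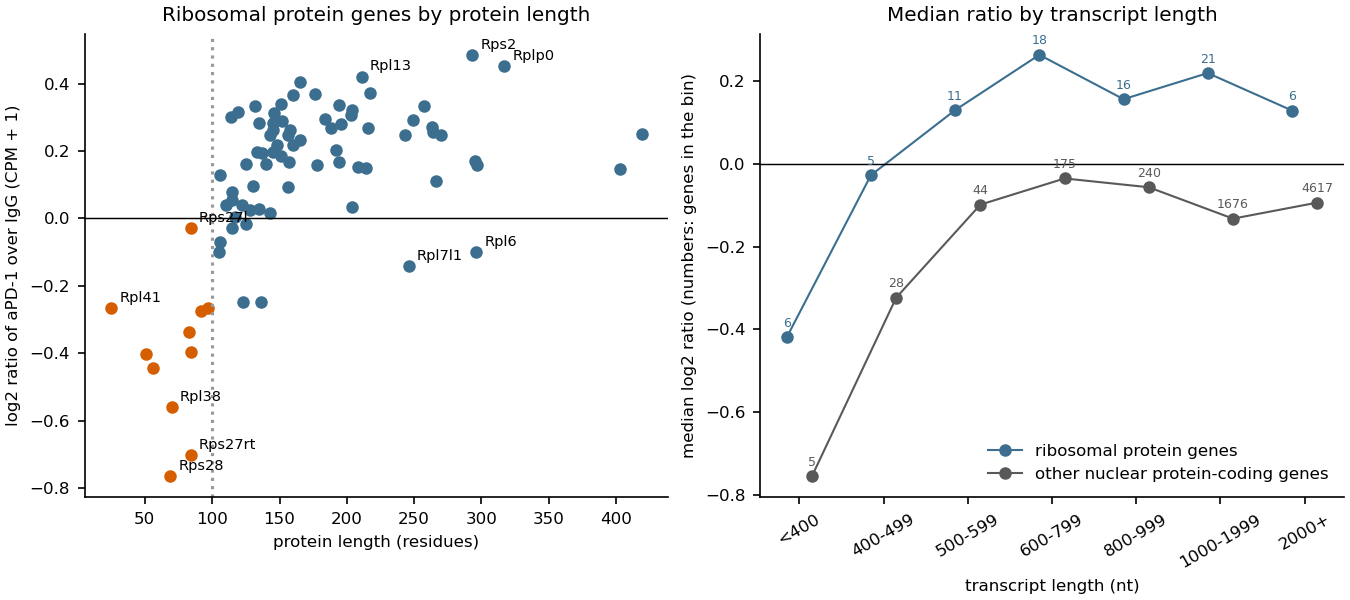
Left, log2 ratio of aPD-1 over IgG (y axis) against protein length in residues (x axis) for 83 ribosomal protein genes, in orange below 100 residues. Right, median log2 ratio (y axis) by annotated transcript length (x axis, nt) for ribosomal protein genes (blue) and other nuclear protein-coding genes (grey), with the number of genes beside each point. All 11 orange points lie below 0, and both lines are lowest under 400 nt, at −0.42 and −0.75.

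In the barcodes left out for over 10% mitochondrial UMIs, most short-protein genes lay above 0, as did the median of all genes. There were 809 such barcodes in IgG and 366 in aPD-1, with at least 1000 UMIs each and median mitochondrial shares of 79.4% and 32.4%. CPM counts mitochondrial UMIs too, so 0 does not mark the same level in these barcodes as in the cells. The family held 13.4% of the IgG UMIs and 17.9% of the aPD-1 UMIs. In them the short-protein genes had a median log2 ratio of 0.13, the other ribosomal protein genes 0.37 and all genes 0.22, and the rank correlation with residues was −0.02. The short-protein genes were thus below the rest of the family there too, but only 3 of 11 lay below 0. These were Rps28 at −0.08, Rps27 at −0.09 and Rps27rt at −0.73, which in the cells was at −0.70. Rpl39 and Rps29 were at 0.22 and 0.23. By the rule of size 46 genes of the family were higher there and 2 lower, where 42.0% and 8.49% of all genes were. The part of RNA quality in these differences was not tested.

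The directions were much the same across clusters of cells. Cells were clustered without the ribosomal protein genes, and 5 of the 8 clusters held 100 or more cells from both libraries. One was led by Car9 and Ndufa4l2, one by Cdc20, Hmmr and Plk1, one by Hist1h1b and Hist1h2ap, and one by Car6, Ccl4 and Mx1, with Gadd45a and Gdf15 also among its top 10. The other was led by Rac2, Spib and Gja4 and had the fibroblast markers Col3a1 and Dpt among its top 10. No cluster held the 3 markers needed for a name. In the first of these the family's median share was 36.6% over 590 IgG cells and 39.5% over 1134 aPD-1 cells. It was 34.4% and 37.6% in the cluster led by Cdc20 (620 and 721 cells), 33.96% and 38.2% in that led by Hist1h1b (216 and 761), 33.5% and 38.8% in that led by Car6 (137 and 290), and 31.5% and 35.1% in that led by Rac2 (562 and 439). The share was higher in aPD-1 in all 5.

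Of the 84 genes, 58 lay above 0 on the log2 scale in every one of the 5 clusters, where 11.5% of all 6967 genes did, and 16 lay below 0 in every one, where 33.3% did. The other 10 went both ways. Rps2 ranged from 0.39 to 0.51 over the clusters and Rps28 from −0.83 to −0.72. The short-protein genes lay below 0 in 11 of 11 cases in 4 clusters and in 10 of 11 in the cluster led by Car6, where Rps27l was at 0.04. Their median ran from −0.42 to −0.34 and that of the other genes from 0.18 to 0.24, beside −0.11 to −0.07 for all genes. In small clusters the shares were less alike. A cluster led by Igfbp3 and Ctla2a, with the endothelial markers Emcn and Esam, had medians of 19.2% in 23 IgG cells and 26.5% in 4 aPD-1 cells. One led by Tex40 and Plac8 had 50.6% in 16 IgG cells and 45.6% in 7 aPD-1 cells, the opposite order.

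**Figure D4:**
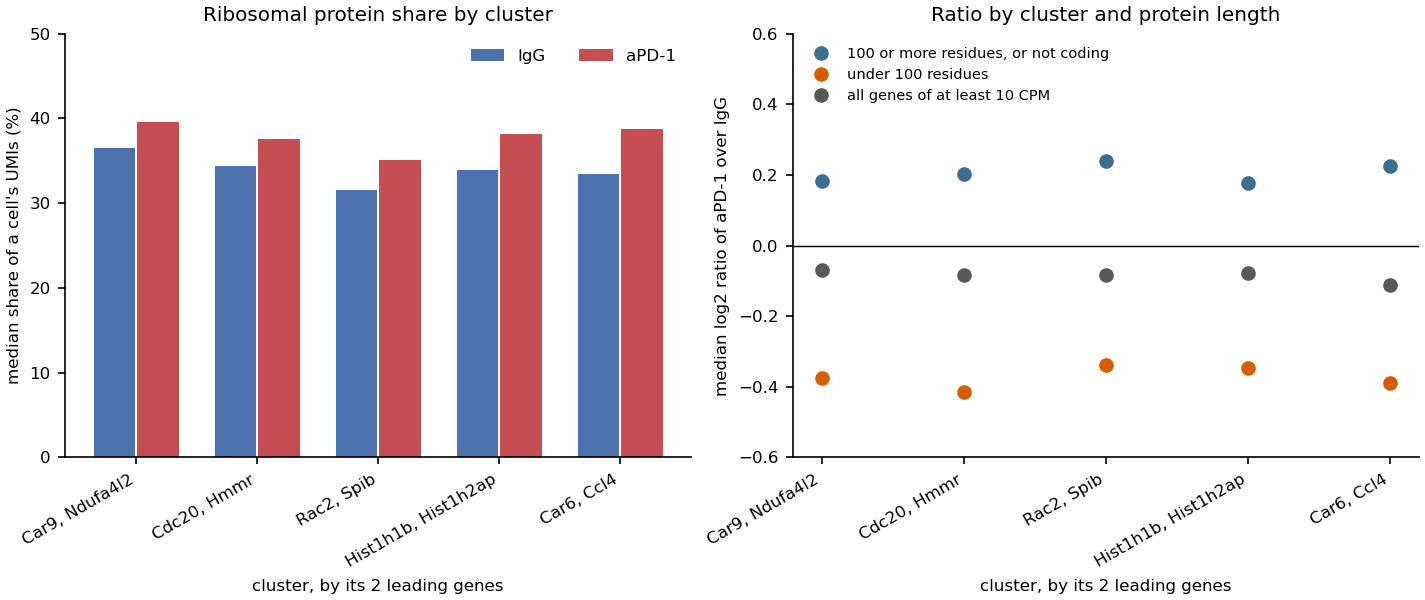
Median share of a cell's UMIs from ribosomal protein genes (left, percent, bars from 0) and median log2 ratio of aPD-1 over IgG (right) in the 5 clusters with 100 or more cells from both libraries, named by their 2 leading genes. The aPD-1 bar is higher in each, the genes of proteins under 100 residues (orange) lie between −0.42 and −0.34, and the other ribosomal protein genes (blue) between 0.18 and 0.24, with all genes (grey) between.

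Every paralog was at a lower level than its partner, and the pairs were not alike in how close their ratios lay. Rpl36a was at 2434 CPM in IgG and at 2318 in aPD-1, and Rpl36al, whose coding sequence is 87.9% identical, at 1079 and 1180.4 CPM. Their ratios stood on either side of 1, at 0.953 (interval 0.945 to 0.960) and 1.09 (interval 1.08 to 1.11). Rpl22 was at 1989.5 and 2023 CPM, and Rpl22l1, 68.2% identical, had a ratio of 1.03 beside 1.02 for Rpl22. Rpl7 was at 2961 and 3516 CPM, a ratio of 1.19, and Rpl7l1, only 54.0% identical, had 0.906 (interval 0.868 to 0.946). Rps27l, 76.1% identical to Rps27, had a ratio of 0.981 where Rps27 had 0.760. Rpl10 was at 5222 and 5788 CPM and Rpl3 at 3169 and 3509 CPM, both with a ratio of 1.11, while their restricted partners Rpl10l (84.8% identical) and Rpl3l (73.3%) were near or at 0. Reads that fit both members of a pair make the closest of these levels uncertain.

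Most of the family with a known window carried a run of pyrimidines near the annotated start, though not always at it. RefSeq promoters on GRCm38.p6 were found for 66 of the 87 genes. A run of at least 8 bases that opens with C and holds only C and T, on the transcribed strand between 10 bases before and 50 after the annotated start, was present in 45 of the 66 (68.2%) and in 18.9% of 27025 genes of the table. Runs of at least 10 bases were present in 46.97% and 8.59%. Run length, counted no further than 50 bases after the annotated start, went with the ratio at a rank correlation of 0.08. This was over the 63 of these genes of at least 10 CPM, Rpl3l, Rpl39l and Rpl10l being left out. Of the 4 highest and 4 lowest ratios with a window, the 4 genes with a run of at least 8 bases are shown, 5′ to 3′ with the run in capitals, a choice made after the runs were seen. The others had shorter runs, of 5 bases in Rplp0, 6 in Rpl13, 7 in Rps27rt and 3 in Rps28. The windows shown are chr17:24720083-24720112 (plus strand), chr2:32961732-32961761 (plus), chr11:114668574-114668603 (plus) and chrX:37085173-37085202 (minus).
Rps2: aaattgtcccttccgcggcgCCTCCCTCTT
Rpl12: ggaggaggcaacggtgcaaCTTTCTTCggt
Rpl38: ctcgttCTTTCCCCgttctcttcggttctc
Rpl39: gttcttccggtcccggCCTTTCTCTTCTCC

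Rpl39, with a ratio of 0.757, had a run of 14 bases and Rpl38 one of 8, beside 10 in Rps2 and 8 in Rpl12. The runs of Rpl39 and Rps2 reached the last base searched, so each may be longer. The run of Rpl38 began at the annotated start, and those of Rps2, Rpl12 and Rpl39 began 40, 39 and 36 bases after it. A match describes these letters and no site of control.

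Genes that work with the ribosome had lower median ratios than the family, with no test of that difference. Beside the counts given for them, 3.46% of all genes were higher and 16.0% lower. Rps27a, which encodes ubiquitin fused to a small subunit protein, was at 6799 CPM in IgG and at 8078 in aPD-1, a ratio of 1.19. Of ribosomal proteins under other symbols, Fau had a ratio of 1.05 and Rack1, listed under its older symbol Gnb2l1, one of 1.19. Of 19 other TOP mRNAs 1 was higher, Tpt1 at 1.27, and 1 lower, with a median log2 ratio of 0.07. Of 75 mitochondrial ribosomal protein genes 1 was higher, Mrpl42 at 1.32, and 2 lower, Mrps31 at 0.748 and Mrpl52 at 0.782, with a median of 0.00. Mrpl39, at a ratio of 0.796, would be a further lower gene without the added CPM. The median of the cytoplasmic family was 0.17, so the mitochondrial ribosome lay between it and the −0.10 of all genes.

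For the lists that follow, the shares of all genes were again 3.46% higher and 16.0% lower. Of 44 translation factors 1 was higher and 2 lower, with a median of −0.04. Eif4ebp1, an inhibitor of cap-dependent initiation that mTOR phosphorylates, had a ratio of 1.38, and Eif3j1 had the lowest, at 0.693. Of 81 ribosome biogenesis genes 2 were higher and 7 lower, with a median of −0.05. Rrp1b had a ratio of 1.44 and Taf1d, of the RNA polymerase I machinery, one of 0.662. Of 19 growth signalling genes none was higher and 2 were lower, with a median of −0.06. These were Ddit4, an inhibitor of mTOR complex 1, at 0.586, and Pdcd4, an inhibitor of initiation, at 0.630. Larp1, which binds TOP mRNAs, was at 1.22.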

How the data were processed

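The deposited values are raw UMI counts for each gene in each barcode. Cell Ranger 3.0.2 produced them, per the file headers. The build mm10 and Seurat 2.1.0 are named in the submitters' processing notes, and no label or header names the annotation or the treatment of reads matching several genes. The IgG matrix holds 4351 barcodes and the aPD-1 matrix all 737280, so the same filters were set on both: at least 5000 UMIs and at most 10% mitochondrial UMIs. No doublet caller was run, and doublets remain in the sums.

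UMIs were summed over the cells of each library and scaled to CPM. Ratios carry exact conditional binomial 95% intervals, levels exact Poisson limits and shares exact Clopper-Pearson limits, with a pseudocount of 1 CPM in log2 ratios and in the calls made from them, not in printed ratios. With 1 library per group no test was made, and a rule of size (25% above or 20% below IgG) stands in for it. Each library yields its values at 49422640 and 61462778 UMIs, so counting error is small. Cells were clustered without the ribosomal protein genes in scanpy 1.11.5 and leidenalg 0.10.2, on 2000 variable genes, 30 components and 15 neighbours at resolution 0.5.

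Lengths and coordinates come from GENCODE M21 on GRCm38, matched by gene identifier for all 87 genes, with 1 transcript per gene (principal, then best supported, then longest). The release behind the matrices may differ. Named genes are the 8 highest and 8 lowest ratios, the 6 highest and 6 lowest levels, the stalk genes, Rpsa, Rps6, Rpl5 and Rpl11, paralog pairs, genes under 10 CPM, and extremes of the other lists. Some genes this rule takes are not reported here. Rps7, Rps12, Rpl8, Rps20, Rpl37, Rpl31, Rpl36, Rpl6, Rpl35, Mrpl39, Rpl27, Rps27a and the residue limit of 100 were chosen after values were seen. Genes and lists were chosen with earlier results of these data known. Counts were also simulated for this comparison over 6954 genes, with counting error only. All 50 genes at 1.5-fold higher and all 50 at 1.5-fold lower were counted, and the 6754 unchanged ones were not. Differences between sorts or library preparations were left out of the simulation, so it cannot show how often they would lead to a call. Alternatives covered cell filters, thinning, weighting, scaling, fold limits and clustering, with Python 3.11.15.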

Additional observations from a re-analysis of the deposited data

Results flagged for a closer look

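Barcodes outside the cells also carried ribosomal protein UMIs. In the 515790 aPD-1 barcodes of under 100 UMIs, which hold free RNA, the family took 37.2% of UMIs, beside 38.2% in the aPD-1 cells. The short-protein genes took 4.002% there and 4.10% in the cells. The IgG matrix has no such barcodes to set beside them. Gene by gene, the log2 ratio of empty droplets over cells went with the ratio of aPD-1 over IgG at a rank correlation of −0.41 across 83 genes. The aPD-1 cell level is the lower term of the first ratio and the upper term of the second. A negative value is thus partly built in, and no conclusion is drawn from it. Rpl7l1, at 73.5 CPM in the cells, was at 100.1 CPM in the droplets, and Rps28, at 2459 CPM in the cells, was at 2254. In barcodes of over 10% mitochondrial UMIs the family held 13.4% of the IgG UMIs and 17.9% of the aPD-1 UMIs. The part of free RNA in the levels above was not tested.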

How the results depend on the processing

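The family's share per cell exceeded IgG in aPD-1 by 3.90 percentage points and the pooled share by 3.75, and both stayed above 0 under every alternative run. In the order per cell and pooled, the gap was 4.43 and 3.82 with lower UMI floors, 3.84 and 3.53 at no more than 5% mitochondrial UMIs, 4.07 and 3.84 at no more than 20%, 4.0 and 3.997 without the 5% of cells with the most UMIs, 4.04 and 4.19 with cells thinned to 5000 UMIs, and 4.28 and 4.08 over nuclear UMIs. It was 3.48 and 3.33 without the cluster led by Rac2 and Spib, 3.87 and 3.73 without the 3 small clusters, and 1.45 and 4.45 in barcodes over 10% mitochondrial UMIs, settings added after seeing the data. With every cell weighing the same, the pooled gap was 4.17.

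The family's median log2 ratio of 0.17 was 0.18 without the deepest cells, 0.16 without the cluster led by Rac2 and Spib, 0.20 after thinning, 0.19 with equal cells, 0.26 per UMI outside the family, 0.021 within it, 0.27 relative to all genes and 0.35 over 10% mitochondrial UMIs. Against 12 higher and 7 lower genes, the counts were 46 and 2 over 10% mitochondrial UMIs (all genes 42.0% and 8.49%). Per UMI outside the family they were 33 and 4 (7.21% and 10.2% of 8194 genes), and within it 1 and 13 (1.05% and 37.0%). Relative to all genes they were 34 and 4 (7.71% and 8.7%). At 1.1-fold they were 51 and 14 (13.8% and 42.6%) and at 1.5-fold 0 and 2 (0.445% and 2.6%). Higher genes were 8 at equal cluster shares (all genes 2.71%) and 8 without the cluster led by Rac2 and Spib (3.47%). They were 14 without the deepest cells (3.97%), 15 after thinning (4.22%) and 16 with equal cells (3.58%). In each of these settings 7 were lower, while the share of all genes that were lower ran from 12.8% at equal cluster shares to 20.3% after thinning. The short-protein median of −0.40 was −0.43 at no more than 5% mitochondrial UMIs, −0.37 after thinning, −0.36 with equal cells, −0.31 and −0.55 per UMI outside and within the family, −0.30 relative to all genes and −0.37 at equal cluster shares. It was 0.13, the other sign, over 10% mitochondrial UMIs, where the median of all genes was 0.22 and so still above it. The sign also changed there for Rps21 (0.072), Rpl39 (0.22), Rps29 (0.23) and Rpl38 (0.070). Rps21 and Rpl38 still lay below that median of all genes, and Rpl39 and Rps29 lay close to it. CPM counts mitochondrial UMIs, whose share in these barcodes differed between the libraries. The cause of the 4 changes of sign was not tested. Of the 15 named genes past the limits, these 4 alone changed sign in any setting. Over all 35 named genes of at least 10 CPM, 16 did. Counts of genes above and below 0 in every cluster, 58 and 16, were 48 and 19 at resolution 1.0 and 52 and 18 with the family among the genes clustered.

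No cluster met the rule for another type, and the alternative without such clusters was not run. No paired analysis was possible because each treatment has 1 library, and leaving out a library was not run for the same reason. Depth limits Rpl3l, Rpl39l and Rpl10l, with 17 UMIs or fewer in a library.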
